A study of Mus musculus with 18 samples.

Results

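In the digit tips of wild-type mouse embryos, 104 of the 42006 probes on the array had a large early rise in signal between embryonic stages E14.5 and E16.5 (days after mating), held that level to E18.5, and stayed within a set limit of wild type in embryos without the Wnt receptor gene Fzd6. They were chosen by a rule on the measured values. The value of a probe on an array is the log2 ratio of the green dye Cy3, which carried the digit-tip RNA, over the red dye Cy5, which carried a common reference RNA, so a step of 1 is a 2-fold change. The rule kept probes whose wild-type mean was higher by at least 2.5 at E16.5 than at E14.5, whose wild-type means at E16.5 and E18.5 differed by less than 1, and whose knockout and wild-type means differed by less than 1 at each of the 3 stages. The probe also had to be well above background in Cy3 on all 3 wild-type E16.5 arrays. The rule used every group of the study, so the differences given for these probes are descriptions, and no test supports them.

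The series examined how loss of Fzd6 changes the differentiation of the nail. Wild-type (WT) and Fzd6-/- (KO) embryos, labelled as strain C57BL/6 and of mixed sex, came from crosses of Fzd6+/- parents and were taken at E14.5, at E16.5 and at E18.5. With 3 arrays for each genotype at each stage there were 18 arrays in 6 groups, and the design text describes the forelimb digit-tip RNA as taken from each embryo. The reference on all 18 arrays combined RNA pooled from mouse cell lines with RNA from the embryonic stem cell line 129ES.

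The nail, or claw in the mouse, is a plate of hardened, keratin-filled cells that grows from an epithelial matrix on the dorsal side of the digit tip. Its precursor is a patch of thickened epidermis, the nail field. Cells of this patch that differentiate stop dividing, stratify and keratinise before birth, while the rest of the digit skin forms its own barrier. Frizzled receptors bind Wnt proteins at the cell surface, and Frizzled6 is known for its part in planar cell polarity, including the orientation of hair; mice that lack it have abnormal claws, and people with variants of the gene can have nail dysplasia. A digit tip holds epidermis, mesenchyme, cartilage, vessels and nerve, and in such bulk RNA fewer cells of a type and less RNA per cell cannot be told apart. None of the 42006 probe IDs was paired with a gene here, so the Fzd6 probe, keratinocyte markers and markers of other cell types were not analysed here, and the genotype and tissue labels have no check from the data.

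The sequences of the array's 60-base probes are the only identity that can be shown. A stretch of 30 bases is given, 5′ to 3′, for the 5 probes with the largest wild-type rise among those measured on every array of that step, for the probe with the largest rise of all, for a probe that differed from the others in the KO, and for 1 probe with a known position. Capitals mark AATAAA, the hexamer that commonly precedes the poly(A) site of an mRNA.
Z00023520-1: gaagccctgtgttgtctgatgtcactctgt
Z00051506-1: tggtggtaggctAATAAAgctttttggttg
Z00024703-1: agtggggaccagatgtcccacaccctaccc
Z00070004-1: cctgccacatcagaaattcaggagattgct
Z00038833-1: tacctggactttcatgttgccaagaaactg
Z00059474-1: tgtccatctttcagagtgcaagtatctctt
Z00075689-1: ggtatcactatttaggacctgtgctgccct
Z00073967-1: gagcagacctccgcgtcttcatctcctcgg

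The last of these, Z00073967-1, was the 1 probe of the 104 that matched a RefSeq promoter window or miRNA hairpin over its whole length. It lies at chr1:156035836-156035895 (GRCm38.p6, + strand), in the window of Tor1aip2, and begins 200 bases before the annotated start site on the strand of the gene. The Tor1aip2 protein is an activator of torsin ATPases in the endoplasmic reticulum. The match gives a position, and which transcript the probe detects was not tested. Across the array, 268 probes matched in the same way.

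In wild-type digit tips the step from E14.5 to E16.5 had a median of 3.18 over the 104 probes and ran from 2.51 to 7.53. Over all 27991 probes with signal in at least 1 group, called tested probes below, the median of this step was -0.10. From E16.5 to E18.5 the 104 probes had a median change of 0.23, from -0.97 to 0.98, and 66 of them were higher at the later stage. The E16.5 mean stood at a median of 93.9% of the whole change between E14.5 and E18.5. All 3 arrays at E16.5 were above all 3 at E14.5 for 104 of 104 probes, which the rule makes likely, and for 20.9% of tested probes. The E18.5 and E16.5 arrays overlapped for 68 of the 104 probes, were separated upward for 24 and were separated downward for 12, against 18.8% and 20.3% of tested probes in those 2 directions.

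How well the rise was measured depended on the signal at E14.5. At WT E14.5, 54 probes cleared background on all 3 arrays, 7 on 1 or 2 arrays, and 43 (called dim here) on none. The 54 measured probes had a median wild-type rise of 2.91, which is 7.50-fold, with a range of 5.69-fold to 32.9-fold. For 39 of the 104 probes both dyes failed this mark on every WT E14.5 array, and their ratio there is one of background to background, so the size of their rise has no firm order. A lower bound could be given for 30 of the 43 dim probes, from normalised Cy3 signals with the E14.5 side raised, where lower, to the weakest signal on that array that cleared background. These bounds, which are open to dye bias because dyes were not swapped, ran from at least 1.16-fold to at least 140-fold. Their median was 2.53-fold and their upper quartile 7.75-fold.

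The 10 largest rises by ratio were between 6.40 and 7.53, and none of these 10 probes cleared background on every WT E14.5 array. Z00059474-1 had the largest, with values of -1.36, -1.06 and -1.56 on the WT E14.5 arrays, of which 2 cleared background. It read 5.93, 6.38 and 6.30 at WT E16.5 and 6.45, 6.38 and 7.09 at WT E18.5. In the KO it read -2.07, -2.28 and -1.83 at E14.5, 5.54, 6.43 and 5.88 at E16.5, and 6.36, 6.21 and 6.16 at E18.5. The genotypes overlapped at E16.5, and all KO arrays were below all WT arrays at E14.5 and E18.5. At E14.5 only 1 of the 3 KO arrays cleared background, so the separation there rests partly on values near background. Z00042903-1, dim at E14.5 in both genotypes, was at least 140-fold higher at E16.5 in WT and at least 13.0-fold higher in KO. Its E16.5 values were 7.23, 7.79 and 7.73 in WT and 7.62, 7.75 and 7.79 in KO, so the genotypes overlapped in the ratio. Its mean normalised Cy3 signal at E16.5, on the log2 scale, was 13.53 in WT and 9.98 in KO, and the reference was well above background on 6 of the 18 arrays, so this probe's ratio rests on a dim denominator on most arrays. The other 8 were Z00026015-1, Z00031875-1, Z00031262-1, Z00070866-1, Z00037999-1, Z00038295-1, Z00047134-1 and Z00070382-1. Among these 8, only Z00031875-1 and Z00037999-1 had all KO arrays below all WT arrays at E16.5.

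In the KO digit tips the same step had a smaller median, and the later change had a larger median. The rise from E14.5 to E16.5 had a median of 3.10 in the KO, with a range of 0.88 to 8.01, and 81 of the 104 probes reached the 2.5 required of WT. All 3 KO arrays at E16.5 were above all 3 at E14.5 for 103 probes, against 18.4% of tested probes. The exception was Z00076751-1, whose KO E14.5 arrays read 2.41, 5.01 and 0.48. The rule makes these KO counts likely, since it required a WT rise of at least 2.5 and KO means within 1 of WT. Nothing is read from them. From E16.5 to E18.5 the KO median change was 0.59, against 0.23 in WT. The KO mean was higher at E18.5 than at E16.5 for 93 probes, and by 1 or more for 17. All KO E18.5 arrays were above all KO E16.5 arrays for 60 probes and below for 1, Z00075689-1, against 19.4% and 26.4% of tested probes. The E16.5 mean stood at a median of 85.2% of the whole change in the KO.

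The label of these probes as on time without Fzd6 held only within the limit of the rule. At E16.5 the KO mean was below the WT mean for 98 of the 104 probes, with a median difference (KO minus WT) of -0.54 and a range of -0.998 to 0.27. Over the tested probes the median was 0.04 and 45.3% were below 0. The WT E16.5 mean enters both the rise required by the rule and this difference, so a probe with a high WT E16.5 mean is favoured by the rule and leans to a negative difference; how much of the shift this makes was not tested. The probes are therefore called early-rising probes here, with no claim on their timing in the KO.

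By array, the median over the 104 probes at E16.5, taken from the WT E14.5 mean, was 3.27, 3.35 and 3.05 for the WT replicates and 2.49, 2.81 and 2.69 for the KO replicates. All 3 KO arrays were below all 3 WT arrays. Taken in the same way, the KO arrays stood at -0.38, -0.22 and -0.26 at E14.5, and at E18.5 the WT arrays stood at 3.45, 3.17 and 3.74 and the KO arrays at 3.35, 3.37 and 3.39, with overlap. Replicates 1 and 2 of each group were scanned together and replicate 3 later: within the first scan the median difference was -0.67, with 92 probes lower in the KO, and within the second it was -0.40, with 89 lower. The WT and KO arrays of E16.5 lay on different slides, so slide and genotype cannot be told apart at this stage.

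At E14.5 the median difference was -0.35, with 69 probes lower and 35 higher in the KO, against a median of 0.02 over tested probes. After loess normalisation of background-corrected signals it was -0.11, with 85 probes lower. Among the 54 probes measured at WT E14.5 the median was -0.49 and 45 were lower. Among the 43 dim probes it was 0.01, where both values are near background. Within the first scan the median was -0.37, but there the WT and KO arrays lay on different slides, so slide and genotype cannot be told apart. For replicate 3, whose WT and KO arrays shared a slide, it was -0.19 with 81 probes lower.

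At E18.5 the median difference was -0.15, with 63 probes lower and 41 higher, but it had the opposite sign, 0.32 and 0.14, after loess normalisation of background-corrected signals and on Cy3 alone. It was -0.01 within the first scan and -0.28 within the second. Without WT replicate 3 it was -0.02, without KO replicate 1 it was -0.07, and without WT replicate 2 it was -0.30. WT and KO arrays of E18.5 also lay on different slides. The differences were under 0.5 in size for 86 probes at E18.5, 43 at E16.5 and 51 at E14.5, and 41 probes were lower in the KO at all 3 stages.

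Counted array by array, all 3 KO values were below all 3 WT values at E16.5 for 55 of the 104 probes and above for 0, against 15.4% and 16.8% of tested probes. At E14.5 the counts were 36 below and 4 above, against 18.7% and 22.8%, and at E18.5 they were 8 and 8, against 15.7% and 14.2%. The 4 above at E14.5 were Z00026345-1, Z00062067-1, Z00075689-1 and Z00071351-1. At that stage Z00026345-1 cleared background on no array of either genotype and Z00062067-1 on no KO array. The order of the genotypes for these 2 probes thus rests on values near background. The same limit holds in the other direction. Among the 36 below, Z00034989-1, Z00045024-1, Z00024459-1, Z00075738-1 and Z00038962-1 cleared background on no E14.5 array of either genotype. The limma model over all tested probes, with Benjamini-Hochberg adjustment, called 33 of the 104 lower and 0 higher at E16.5, against 7.86% and 8.19% of tested probes. At E14.5 it called 18 lower and 1 higher (7.17% and 5.54% of tested probes), and at E18.5 it called 1 lower and 4 higher (6.63% and 6.42%). Since the rule used these contrasts, nothing is read from the counts. The E16.5 count fell to 20, 18 and 16 without WT replicate 1, WT replicate 2 and KO replicate 1 of that stage, and the E14.5 count of 19 fell to 12, 11 and 12 without WT replicate 1, WT replicate 2 and KO replicate 2. The E18.5 count of 5 fell to 2 without WT replicate 3 and to 2 without KO replicate 2, and was 11 without WT replicate 2. The shares of tested probes in these 3 fits are not given, so nothing is read from the changes.

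The 54 probes measured at WT E14.5 give the course of both genotypes without dim values in WT. Their median rise was 2.91 in WT and 2.89 in KO. Taken probe by probe the rise was smaller in the KO for 39 of the 54, with a median difference of -0.22. Over all 104 it was smaller for 72, with a median of -0.24, against 46.4% of tested probes. The later change had a median of 0.16 in WT and 0.75 in KO. It was larger in the KO for 53 of the 54 probes, against 12828 of the 27991 tested probes. The WT E16.5 mean, which the rule favours when high, enters both the rise and the later change. Among the 104 it leans the difference in rise down and that in later change up, by an amount that was not tested. The difference between genotypes accordingly went from a median of -0.69 at E16.5, with 53 of 54 lower in the KO, to -0.04 at E18.5, with 29 lower. Their E16.5 mean stood at a median of 94.2% of the whole change in WT and 82.0% in KO. In the 43 dim probes the later change had a median of 0.28 in WT and 0.45 in KO, and was larger in the KO for 24. For both steps the layout of slides differed between the genotypes, so slide and genotype cannot be told apart here.

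Among measured probes Z00023520-1 had the largest wild-type rise, 5.04. Its values were -1.68, -1.39 and -2.20 at WT E14.5, 3.37, 3.58 and 2.92 at WT E16.5, and 2.48, 2.67 and 3.33 at WT E18.5. In the KO they were -1.38, 1.05 and -2.05, then 2.06, 2.12 and 2.69, then 2.40, 2.88 and 2.76. KO replicate 2 stood well above the other 2 at E14.5, and the KO arrays were all below the WT arrays at E16.5, where the difference of -0.998 was the closest of the 104 to the limit of the rule. Z00022789-1, the nearest probe outside that limit, differed by -1.02.

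Z00051506-1, which carries AATAAA, had a rise of 4.95 in WT and 4.21 in KO. It read -0.51, -0.68 and -0.60 at WT E14.5 and -0.46, -0.51 and -0.72 at KO E14.5, where the genotypes overlapped. At E16.5 it read 4.12, 4.58 and 4.37 in WT and 3.39, 3.82 and 3.74 in KO, a difference of -0.71 ± 0.14 (SE). At E18.5 it read 4.68, 4.57 and 4.88 in WT and 4.15, 4.09 and 3.88 in KO, a difference of -0.67 ± 0.14 (SE). The KO arrays were all lower at both later stages, and this was the 1 probe that the model called lower at E18.5.

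Z00024703-1 read -1.21, -1.44 and -1.52 at WT E14.5 and -2.22, -2.35 and -1.97 at KO E14.5. At E16.5 it read 3.08, 3.40 and 2.68 in WT and 1.76, 2.43 and 2.06 in KO. At E18.5 it read 2.96, 2.38 and 3.10 in WT and 2.43, 2.84 and 3.23 in KO. The genotypes were thus separated at E14.5 and E16.5 and overlapped at E18.5, with differences of -0.79, -0.97 and 0.02. The promoter-matched probe Z00073967-1 had the same order, with differences of -0.34, -0.86 and 0.03 and arrays separated at the first 2 stages.

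Z00070004-1 and Z00038833-1 are the next largest measured rises, 4.21 and 3.98 in WT and 4.36 and 3.64 in KO. Z00070004-1 read 7.77, 8.27 and 7.88 at WT E16.5 and 7.47, 7.88 and 7.18 at KO E16.5, with overlap. Z00038833-1 read 0.03, 0.45 and -0.30 at WT E16.5 and -0.81, -0.26 and -0.35 at KO E16.5, also with overlap, and its later change was 0.00 in WT and 0.70 in KO. These 2 probes, with Z00051506-1, Z00024703-1 and the further probes named from counts of 5 or fewer, were chosen after their values were seen.

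The lowest differences between KO and WT at E16.5, after that of Z00023520-1, were those of Z00027032-1 and Z00016506-1. Z00027032-1 read 3.60, 3.95 and 3.83 in WT and 2.61, 2.80 and 3.00 in KO, a difference of -0.99 ± 0.23 (SE), and went to -0.26 at E18.5. Z00016506-1 read 1.63, 1.23 and 0.99 in WT and 0.08, 0.37 and 0.45 in KO, a difference of -0.98 ± 0.24 (SE), and went to 0.31 at E18.5. For both, the KO arrays were all lower at E16.5 and overlapped WT at E18.5.

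At the other end, 6 probes had a KO mean above WT at E16.5, by 0.11 to 0.27, and for all 6 the arrays overlapped. This direction holds for the ratio: the mean normalised Cy3 signal was lower in the KO for 4 of the 6, and on Cy3 alone 101 of the 104 probes were lower in the KO. The 6 were Z00026797-1, Z00075689-1, Z00025656-1, Z00042903-1, Z00023993-1 and Z00040840-1. Of these, Z00075689-1 was measured on every array: it read -0.81, -0.60 and -0.97 at WT E14.5 and -0.01, 0.05 and -0.13 at KO E14.5. That difference of 0.76 ± 0.16 (SE) was the 1 call of a higher KO level at E14.5. At E16.5 it read 1.75, 1.99 and 1.77 in WT and 1.78, 2.28 and 2.06 in KO. It was also the 1 measured probe whose later change was not larger in the KO, at -0.40 against -0.21 in WT.

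The smallest KO rise, 0.88, was that of Z00071351-1, against 2.57 in WT. It read -3.17, -2.72 and -2.87 at WT E14.5 and -2.06, -2.22 and -2.18 at KO E14.5, then -0.48, -0.05 and -0.50 at WT E16.5 and -1.25, -0.75 and -1.82 at KO E16.5. The KO arrays were thus all higher at the first stage and all lower at the second. Z00076751-1, with the most spread KO E14.5 arrays (SD 2.27, n = 3), had a rise of 1.75 in KO and 3.35 in WT.

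The change within WT after E16.5 spanned nearly the whole range the rule allows. Z00047134-1 and Z00026331-1 had the lowest changes in mean, -0.97 and -0.93. Z00026331-1 read -0.33, -0.01 and -0.67 at WT E16.5 and -0.98, -1.81 and -1.03 at WT E18.5, without overlap, while in KO it read -1.42, -0.92 and -1.01 and then -1.65, -1.01 and -0.32. Z00026797-1 and Z00026207-1 were highest, at 0.98 and 0.96, and Z00026797-1 changed by 0.12 in KO, where its E16.5 value was the highest relative to WT.

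Values near the limits show how the choice was made. Just inside the limit on the wild-type rise were Z00074753-1 and Z00031219-1, both at 2.51, and just outside were Z00002099-1 at 2.49 and Z00010588-1 at 2.48. For the later wild-type change Z00026797-1 was inside at 0.98 and Z00025054-1 outside at 1.01. For the difference at E14.5 Z00065540-1 was inside at -0.99 and Z00029243-1 outside at 1.04, and for that at E18.5 Z00077696-1 was inside at 0.93 and Z00035474-1 outside at -1.07.

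The 104 probes may stand for fewer than 104 transcripts, since 4 pairs overlap in sequence on the same strand and may each report 1 target. The shared stretches show which pairs these are. They are the first 30 shared bases for 3 pairs, or all 25 for the pair with fewer, and, for the pair of Z00032458-1 and Z00078069-1, 30 aligned bases of each with their single mismatch in capitals.
Z00026043-1 and Z00060172-1: tcaagaaaagcccagctagtcttgttttgt
Z00075424-1 and Z00076596-1: cacccgtttttgtgcatttcgctttgtttt
Z00068950-1 and Z00077459-1: agattctcctggccaaaatttcaaa
Z00032458-1: aaaatagatcctttgattaccaagAgggct
Z00078069-1: aaaatagatcctttgattaccaagCgggct

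Z00032458-1 and Z00078069-1 overlap over 57 bases and differ by A45C, counted from the 5′ end of the first probe. Their differences between genotypes were -0.60 and -0.90 at E14.5, -0.89 and -0.83 at E16.5, and 0.25 and 0.11 at E18.5. Z00026043-1 and Z00060172-1, with 36 shared bases, differed by -0.87 and -0.64 at E16.5 and by -0.15 and -0.27 at E18.5. Z00075424-1 and Z00076596-1, also with 36, differed by -0.49 and -0.03 at E16.5, and both were dim at WT E14.5. The 2 probes of a pair had the same sign at each stage in all 4 pairs. A shared sign at E16.5 is likely for any 2 of the 104, of which 98 were lower in the KO. Nothing is read from the shared signs.

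Z00068950-1 and Z00077459-1, the pair with 25 shared bases, were measured on all arrays and were the closest to each other. Z00068950-1 read -4.69, -4.71 and -5.14 at WT E14.5 and -5.06, -4.92 and -4.96 at KO E14.5. It then read -1.53, -1.35 and -1.71 at WT E16.5 and -2.03, -1.94 and -1.87 at KO E16.5, and -0.74, -0.70 and -0.75 at WT E18.5 and -0.33, -0.26 and -0.25 at KO E18.5. The KO arrays were all lower at E16.5 and all higher at E18.5, with differences of -0.41 and 0.45, and Z00077459-1 gave -0.41 and 0.52. These 2 probes, Z00059808-1 at 0.74 and Z00019088-1 at 0.56 were the 4 that the model called higher in the KO at E18.5. Z00019088-1 had overlapping genotypes at E16.5, and at E18.5 it read -0.41, -0.33 and -0.43 in WT and 0.16, 0.18 and 0.16 in KO. All 4 had Cy3 signals below those of the reference on every array except Z00019088-1 at KO E18.5.

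By sequence the 104 probes resembled the rest of the array in base content, with a median GC content of 45% and a range of 30% to 75%, against a median of 45% over tested probes. The hexamer AATAAA, searched on the strand of the probe, was present in 12 of the 104 (11.5%) and in 7.68% of tested probes. Its reverse complement TTTATT was in 2.88% and 3.14%, and the variant ATTAAA in 0.962% and 3.32%. Such matches describe letters and do not mark a site in use. The reference RNA was well above background on all 18 arrays for 54 of the 104 probes, on none for 10, and on 1 to 17 arrays for 40, so ratios of the last 2 groups rest partly on a dim denominator.

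The wild-type part of the rule alone kept 346 probes, of which the 104 were within the genotype limit and 242 outside it. Of these 242, 188 were lower in the KO by 1 or more at E16.5 and 1 was higher, and 135 were past the limit at E16.5 alone. Their median difference was -1.54 at E16.5, -0.11 at E14.5 and -0.08 at E18.5, against -0.54, -0.35 and -0.15 for the 104. The rule splits the 346 by this difference, so the gap between the 2 sets is its product. By sign, 94.2% of the 104 and 96.7% of the 242 were lower in the KO at E16.5, and since the WT E16.5 mean enters both the required rise and this difference, nothing is read from these shares.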

How the data were processed

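RNA of forelimb digit tips was hybridised in Cy3 against a common reference in Cy5 on 18 Agilent arrays of 60-base probes, with no dye swap. Per the file headers, the deposited scanner files came from Agilent Feature Extraction 9.5.1.1 and hold spot intensities after the software's background subtraction and dye normalisation, with flags for each spot. The log2 ratio of these processed intensities, Cy3 over Cy5, was used here as it stands, since the selection rule is written on it; control spots (1417 of 43451) were left out.

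The deposited value table of 25030 probes, of which 70 are among the 104, holds log10 values whose scale and direction were unstated. Set against the scanner ratios of each array it gave r = 1.0000 and a slope of 1.0000 on log10 of sample over reference, plus a constant per probe of unknown origin. The medians of its columns, by replicate number, were 2.45, 2.45 and 2.45 (WT E14.5), 2.48, 2.48 and 2.47 (WT E16.5), 2.47, 2.47 and 2.47 (WT E18.5), 2.44, 2.44 and 2.46 (KO E14.5), 2.47, 2.46 and 2.47 (KO E16.5), and 2.47, 2.47 and 2.48 (KO E18.5).

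The 18 arrays entered a limma 3.58.1 model in R 4.3.3 (lmFit, eBayes) with a mean for each of the 6 groups, over the 27991 probes whose Cy3 signal was well above background throughout at least 1 group, with Benjamini-Hochberg adjustment at 0.05, two-sided. The procedure was tested on simulated data. Each array had 25100 to 29081 probes with such a signal. The number of arrays limits the precision, and the p-values measure only the spread between these samples.

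The members, the lists and the tests were chosen with earlier results of these data known. The probes named are the 10 largest wild-type rises, the 3 lowest and 3 highest differences at E16.5, the 2 lowest and 2 highest later wild-type changes, those nearest each limit of the rule, those that overlap in sequence and those matched to a RefSeq table. Others are named as chosen afterwards. The gene lists and cell type markers planned for probes with gene names were not analysed here.

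Replicate numbers were checked for pairing by correlating the deviations of same-numbered WT and KO arrays from their group means. The correlations were 0.23, 0.38 and 0.31 at E16.5, against -0.30 to -0.04 for arrays of different number. This is a hint of pairing there and no more, since deviations from a mean of 3 arrays are tied to each other. The same-numbered correlations were -0.20, 0.05 and -0.01 at E14.5 and -0.19, 0.02 and -0.09 at E18.5. The main model has no term for a pairing. Bounds for dim probes used Cy3 after normexp (offset 50), loess and Aquantile scaling, and 13 of 43 WT bounds above the measured ratio were left out.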

Additional observations from a re-analysis of the deposited data

Results flagged for a closer look

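For 4 of the early-rising probes the KO arrays were all below the WT arrays at E16.5 and all above them at E18.5, so the genotype difference turned over between the stages. Of tested probes, 15.4% were separated downward at E16.5 and 14.2% upward at E18.5. The share with both was not counted, so nothing is read from the count of 4. The WT E16.5 mean, which the rule favours when high, enters each turn that includes E16.5. For Z00077696-1 the difference went from -0.88 to 0.93, a turn of 1.81. It read 3.19, 3.66 and 2.78 in WT against 2.24, 2.27 and 2.48 in KO at E16.5, and 2.34, 2.32 and 2.35 in WT against 3.08, 3.33 and 3.38 in KO at E18.5. The probe was dim on every E14.5 array and its GC content of 75% was the highest of the 104. For Z00068950-1 the turn was 0.87, from -0.41 to 0.45, and for Z00077459-1, which shares 25 bases with it, the turn was 0.94, from -0.41 to 0.52. For Z00059808-1 the turn was 1.24, from -0.50 to 0.74. It read -1.57, -1.76 and -2.10 in WT against -2.45, -2.36 and -2.11 in KO at E16.5, where the nearest arrays almost met, and -1.39, -1.21 and -1.56 in WT against -0.81, -0.60 and -0.52 in KO at E18.5. Its KO arrays were also all lower at E14.5, with a difference of -0.30, a turn of 1.04 to E18.5.

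Z00071351-1 turned the other way between the first 2 stages: all KO arrays were above all WT arrays at E14.5, by 0.76, and below them at E16.5, with a change of -1.69 in the difference. The change between stages was not tested for any of these 5 probes. The WT and KO arrays lay on different slides at E16.5 and at E18.5.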

How the results depend on the processing

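Which probes the rule keeps depends on the processing. With normexp background correction and loess it kept 64 probes, 37 of them among the 104, and on Cy3 alone it kept 71, 43 of them among the 104. A rise of at least 2 or 3 kept 182 or 62, a genotype limit of 0.58 kept 30, and signal on all 18 arrays kept 53. The median wild-type rise was 2.61 with normexp and loess, 4.20 on Cy3 alone, 2.90 for probes with signal on all 18 arrays and 2.91 for those with signal at WT E14.5. The median difference at E14.5 was -0.11 with normexp and loess, -0.52 with median centring, -0.50 with signal on all 18 arrays, -0.49 with signal at WT E14.5 and -0.19 in the second scan. At E16.5 it was -1.03 on Cy3 alone and stayed negative in each alternative. At E18.5 it reversed to 0.32 with normexp and loess and 0.14 on Cy3 alone; the cause was not tested.

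The model's calls among the 104 at E14.5 were 10 with normexp and loess, against 8.95% of tested probes. With slide as a fixed term, which could not be fitted at the later stages, they were 2, against 4.55%. At E16.5 they were 74 on Cy3 alone, against 17.4% of tested probes. At E18.5 they were 15 with normexp and loess, 12 on Cy3 alone, 2 with median centring and 1 in the value table, which holds 70 of the 104. The shares of tested probes called were 8.86%, 11.4%, 10.6% and 13.2% in the same order. Within the first scan 1 was called at E18.5. No share of tested probes is given for that fit, so nothing is read from it. With a replicate block the calls were 14, 33 and 5 at the 3 stages, against 19, 33 and 5 without, and with only the 6 arrays of a stage they were 25, 26 and 5 without the block and 14, 33 and 1 with a replicate block. Without 1 array at a time the rule kept 95 to 115 probes, and the median rise was 3.12 to 3.26. The median differences were -0.40 to -0.28, -0.67 to -0.44 and -0.30 to -0.02 for the 3 stages in order. The calls were 11 to 20, 16 to 36 and 2 to 11. The share of tested probes called ran from 7.86% to 13.8% at E14.5 and from 10.8% to 18.4% at E16.5, and is not given for E18.5. The replicate block moved the 6-array counts at E14.5 and E18.5 by over 1.5 times, and no count of the fit to all 18 arrays. For the named probes, 272 of 319 recomputed wild-type rises moved by less than 1 SD between replicates, 47 moved by more, and 0 changed sign. The 6-array fits with a replicate block, the subset with signal at WT E14.5, the values within a scan and the removal of outlier-flagged spots were chosen after seeing the data.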
